A study of Mus musculus with 6 samples.

Results

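H3K4me3 regions called in both of the study's libraries for this mark were the 231 regions of replicate 1, of 8129 in its list, that overlapped a region of replicate 2 by at least 1 bp. They made up 2.84% of the replicate 1 list (exact 95% interval 2.49 to 3.23%) and, since the pairs were 1 to 1, 72.2% of the 320 regions of replicate 2 (66.9 to 77.0%). The regions were chosen by the authors' calls in both H3K4me3 libraries, so their scores, widths, positions and annotation classes in both H3K4me3 lists are given as a description. The TAF4b libraries took no part in the choice.

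The study profiled female germ cells of mouse embryos at E16.5 by CUT&RUN, in which an antibody directs a nuclease to its target and the DNA released is sequenced. Each of the 3 antibodies, against H3K4me3, against TAF4b and control IgG, had 2 libraries, all labelled as oocytes of strain C57BL/6 with the genotype Taf4b-wildtype. The embryos carried an Oct4-EGFP transgene (B6;129S4-Pou5f1tm2Jae/J), for which the mated mice were homozygous and which is active in germ cells, and cells from gonads were sorted on GFP. The labels do not say how many embryos were pooled for a library or whether replicates came from separate litters. IgG was not analysed here, and the lists pair no region with a gene name, so neither background signal nor germ cell markers could be set beside the regions.

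H3K4me3 is trimethylation of lysine 4 on histone H3. It is deposited mainly by SET1 and MLL methyltransferase complexes around the start sites of active genes, many of them in CpG islands, and the TFIID subunit TAF3 can bind it. TAF4b is a paralogue of the TFIID subunit TAF4 that is enriched in the gonads, and TFIID is the general transcription factor that recognises core promoters. In oocytes, H3K4me3 is also known to mark sites away from promoters, among them meiotic recombination hotspots, where PRDM9 places it.

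The share of regions called again rose with the authors' score in replicate 1, a number whose scaling is not stated and which is therefore compared only within a list. The list was divided by score into 4 groups, with ties kept together, which span 23.2 to 32.5, 34.8 to 41.8, 44.1 to 58.0 and 60.3 to 693.7. From the lowest group upward, 13 of 1961 regions (0.663%), 26 of 2173 (1.2%), 50 of 1899 (2.63%) and 142 of 2096 (6.77%) were called in replicate 2. The highest group thus held 61.5% of the regions in both lists. Even at the top of the list most regions had no counterpart, with 24 of the 100 highest called again (24.0%, 16.0 to 33.6%), and at the bottom some did. The lowest score of a region in both lists was 27.8, against 23.2 in the whole list.

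Annotation class separated regions of like score. Among replicate 1 regions in the highest of 10 score groups, 13.3% of those in the authors' promoter class (10.5 to 16.5%) and 5.81% of the others (3.29 to 9.41%) were called again. In the next group down the shares were 6.15% (4.09 to 8.82%) and 2.94% (1.48 to 5.2%), and their intervals overlapped. In each of the 4 groups below that, the fifth to the eighth from the bottom, the promoter share was higher and the intervals did not overlap, as with 5.06% (2.97 to 7.98%) against 0.939% (0.256 to 2.39%) in the seventh. In the 4 lowest groups both shares were low and the intervals overlapped.

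**Figure D1:**
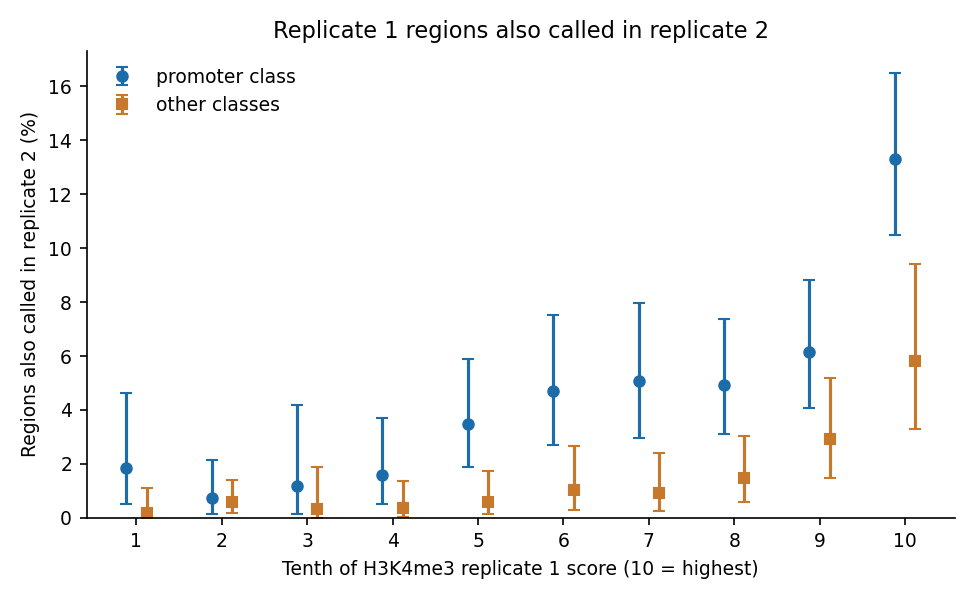
Share of H3K4me3 replicate 1 regions also called in replicate 2 (%), by score in 10 groups of rising replicate 1 score, for promoter-class regions (circles) and all other classes (squares), with exact 95% intervals. Promoter regions of the highest group reach 13.3% and other regions 5.81%.

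The regions in both lists were mostly promoters. The promoter class took 178 of the 231 (77.1%, 71.1 to 82.3%), introns 31 (13.4%), exons 12 (5.19%), intergenic sequence 7 (3.03%) and transcription end sites 3 (1.3%). The background share of promoters over the whole replicate 1 list was 43.8%, and among the 7898 other regions it was 42.8%. When those others were weighted to the same mix of the 4 score groups, their promoter share was 50.5%, which left a gap of 26.6 percentage points. Intergenic regions went the other way, with 3.03% in both lists against 10.5% of the weighted others, and introns with 13.4% against 26.6%. In each score group the promoter share was higher among the regions in both lists, from 53.8% against 31.7% in the lowest group, over 13 regions and with overlapping intervals, to 77.5% (69.7 to 84.0%) against 56.3% (54.1 to 58.5%) in the highest. Of the 231 pairs, 212 had the same class in both lists.

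**Figure D2:**
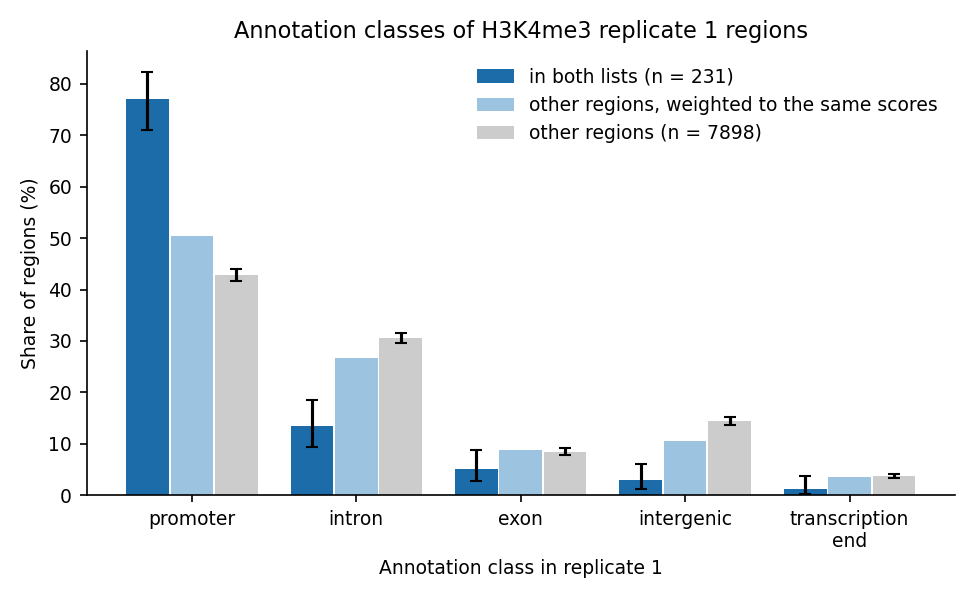
Share of H3K4me3 replicate 1 regions (%) in each annotation class, for the 231 regions in both lists, for the 7898 others weighted to the same score groups, and for the same others unweighted. Bars start at 0 and error bars are exact 95% intervals, which the weighted shares lack. Promoters make up 77.1%, 50.5% and 42.8% of these sets.

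Promoter regions in both lists were centred on the transcription start site (TSS). Their median distance was -5 bp in replicate 1 (95% interval of the median -13 to 4 bp, n = 178), negative values being upstream, and -4.5 bp in replicate 2 (-19 to 11 bp). Score-weighted promoter regions found in replicate 1 alone had a median of -8 bp, a difference of 3 bp that lies within the interval. Centres within 100 bp of the TSS were 66.9% of the regions in both lists (59.4 to 73.7%) and 59.9% of the weighted others, again within the interval. Position around the TSS thus did not separate regions called again from other promoter regions beyond counting error.

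**Figure D3:**
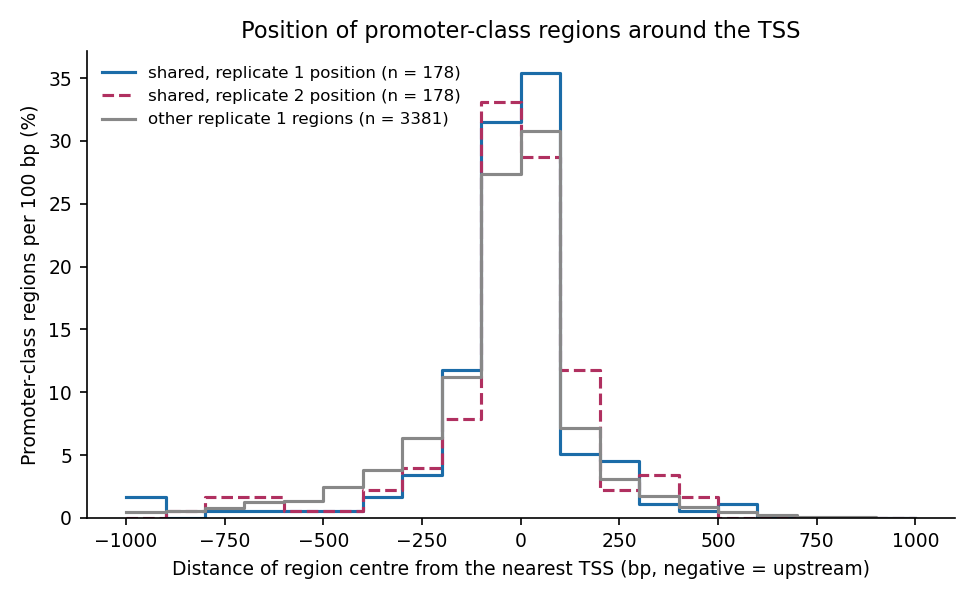
Share of promoter-class regions (%) per 100 bp of distance between region centre and nearest TSS, for the 178 promoter regions in both lists at their replicate 1 position (solid) and replicate 2 position (dashed), and for the 3381 other promoter regions of replicate 1 (grey). All 3 curves peak within 100 bp on either side of the TSS.

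The libraries placed the same region at slightly different points. Paired centres lay a median of 116.5 bp apart (96.0 to 136.0 bp), the overlap had a median of 500 bp, and 116 of the 231 replicate 2 regions lay wholly inside their replicate 1 partner. The nearest transcript was the same for 144 pairs, 95 of them promoters. Over those 95, replicate 2 was centred nearer the TSS in 49 and replicate 1 in 46, with a median shift of 10 bp downstream (-15 to 27 bp), so neither library was the closer one.

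Width followed the score. Regions in both lists had a median width of 772 bp in replicate 1 (720 to 820 bp), against 500 bp, the narrowest width in the list, for all others. Weighted to the same score groups and classes, the others had a median of 773 bp, within the interval. In replicate 2 the same regions had a median width of 500 bp and 202 of them (87.4%) were exactly that wide. The replicate 1 region was the wider one in 174 pairs and the narrower one in 6.

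Scores of the regions agreed weakly between libraries. Spearman's rho over the 231 pairs was 0.203, a description of regions that share their libraries and, in replicate 2, many tied scores: 80 regions (34.6%) had the score of 85.1, which is also the median of that list, and 18 distinct values covered them all. Pearson's r was 0.736 with, and 0.378 without, the highest region. Of the 19 among these 231 regions that were above the percentile of 90 in replicate 2, 14 were also above it in replicate 1, where 84 of the 231 were. The 19 leave out replicate 2 regions with no replicate 1 call, and only 2 of the 231 held replicate 2 ranks of 1 to 10.

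**Figure D4:**
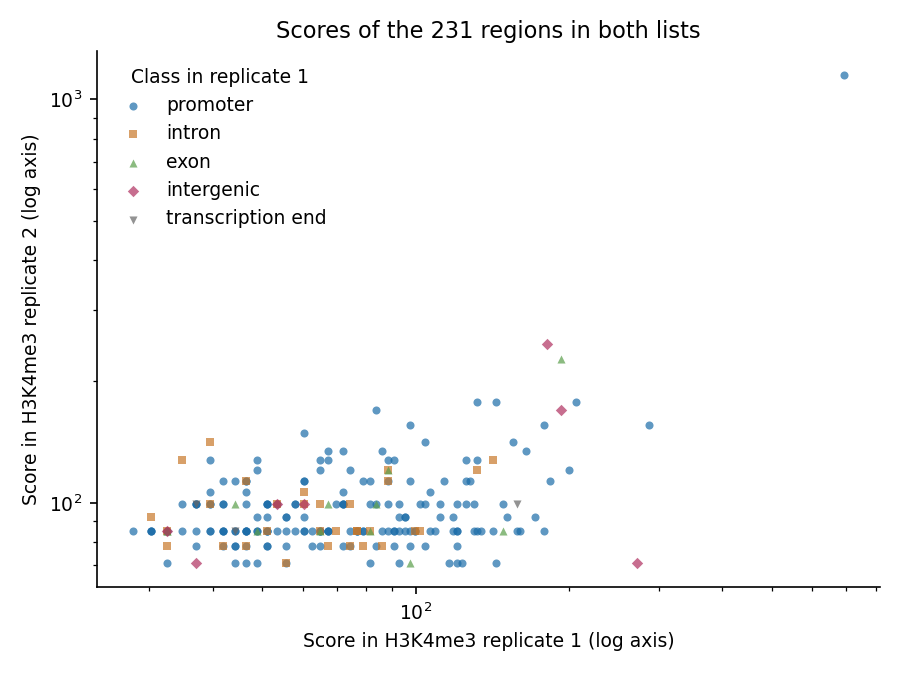
Score of each of the 231 regions in H3K4me3 replicate 1 and replicate 2, on log axes, with symbols for the annotation class in replicate 1. Replicate 2 scores sit in rows because 18 distinct values cover them, and 1 region, at 693.7 and 1148.6, stands apart from the rest.

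The regions with the highest mean percentile over both lists were of several kinds. The highest lay on the unplaced contig JH584304.1 at 59308 to 60333, with scores of 693.7 and 1148.6 in replicates 1 and 2, in the promoter class at -130 bp from a TSS. A neighbour on that contig at 53590 to 54090, in an exon, scored 192.6 and 226.9. These 2 were the only regions in both lists outside the assembled chromosomes, where replicate 1 had 3 in all, and neither held a TAF4b peak.

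Among assembled chromosomes, an intergenic region on chromosome X led, at 95011010 to 95012482, with scores of 181 and 248.2 and ranks of 25 and 10. A promoter on chromosome 1 at 131453842 to 131455790 followed with 206.5 and 177.3, and one on chromosome 13 at 92490864 to 92491795 with 143.8 and 177.3. Both promoters also held a peak of each TAF4b library, scored 12.3 and 36.5 on chromosome 1 and 8.85 and 27.4 on chromosome 13. The rest of the highest 10 comprised an intergenic region on chromosome 11 at 32751941 to 32753011 (192.6 and 170.2) and promoters on chromosomes 11, 8, 3 and 2. Of these 4 promoters, those on chromosomes 8, 3 and 2 held a TAF4b peak of replicate 2 and none of replicate 1, while that on chromosome 11, at 72686155 to 72687837, held none.

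Some regions ranked far higher in 1 library than in the other. The largest gap was at an intergenic region on chromosome 11, at 64257667 to 64258786 and -67932 bp from the nearest TSS. It ranked 5 in replicate 1 with a score of 271.4 and had 70.9 in replicate 2, where the lowest score was 63.8. Promoter regions on chromosome 2 (75533965 to 75535530, 143.8 and 70.9) and chromosome 14 (21549873 to 21551098, 123 and 70.9) were of the same kind. In the other direction, an intronic region on chromosome 2 at 72001345 to 72001845 had 34.8 in replicate 1, the score of its rank of 5703, and 127.6 in replicate 2, a rank of 33. Of the 5 regions with the largest gap in that direction, 3 were intronic and 2 were promoters, and none held a TAF4b peak. Of the 5 with the largest gap towards replicate 1, 3 promoters, that on chromosome 14 among them, held peaks of each TAF4b library. These sets differ in replicate 1 score and class by their choice, so the counts are not compared. Peaks of each library lay in 3.53% of all replicate 1 regions and in 7.16% of those in the promoter class. Among promoter regions in both lists, the count was 28 of 110 (25.5%, 17.6 to 34.6%) in the highest of the 4 score groups. For the other promoter regions of that group it was 132 of 1100 (95% interval 10.1 to 14.1%). In the second group the counts were 0 of 20 (0.0 to 16.8%) and 33 of 834 (3.96%, 2.74 to 5.51%), with overlapping intervals.

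At the edge of the rule, the smallest overlaps were 53 and 63 bp, at regions on chromosome 7 starting at 140808944 and 101554490, with replicate 1 scores of 32.5 and 30.2. The replicate 1 regions that came closest without overlapping were 86 and 144 bp from a replicate 2 region, on chromosome 11 at 60243716 to 60244360 (score 53.4) and chromosome 5 at 3393099 to 3394651 (score 83.5). Both are promoters. An overlap of at least 50% of the narrower region kept 223 of the 231.

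Outside the promoter class, the regions in both lists lay within 1 kb of a TSS more often than the others, a comparison not matched for score. The centre was at most 1 kb from a TSS in 26 of these 53 (49.1%, 35.1 to 63.2%) and in 26.1% of the 4517 others outside the class. The intron was the first of its transcript in 19 of 31 intronic regions (61.3%, 42.2 to 78.2%) and the exon in 9 of 12 exonic ones (42.8 to 94.5%), shares not distinguishable from the 47.6% and 71.0% of the others. That left 27 regions beyond 1 kb (11.7% of the 231), against 42.3% of the unweighted other regions. With the others weighted to the same score groups, the gap was smaller: 88.3% of the 231 and 65.1% of the weighted others were within 1 kb. The 27 comprised 17 in introns, 7 between genes, 2 in exons and 1 at a transcription end site, and 15 of the 231 were beyond 10 kb.

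Counts per chromosome followed the list. Between 1.43% (chromosome 6) and 4.31% (chromosome 4) of replicate 1 regions on chromosomes 1 to 19 and X were called again, with 8 of 234 on X (3.42%, 1.49 to 6.63%). The intervals of these extremes overlapped.

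TAF4b peaks, the measure the choice did not use, lay in more of the regions in both lists than in other regions of like score and class. A peak of either TAF4b library was found in 83 of the 231 (35.9%, 29.7 to 42.5%), where the background over all replicate 1 regions was 10.7%. Others weighted to the same score groups and classes reached 21.1%. The difference from these, 14.8 percentage points, had the same direction in each TAF4b library: 54 regions held a peak of replicate 1 (23.4%, 18.1 to 29.4%; background 6.43%) against 13.1% of the weighted others, and 66 a peak of replicate 2 (28.6%, 22.8 to 34.9%; background 7.81%) against 15.6%. Peaks of each library were present in 37 regions (16.0%, 11.5 to 21.4%; background 3.53%) against 7.48% of the weighted others. The contrast is between regions of the same list, with 2 libraries per target and no groups of libraries to compare. Regions are not replicates, so no test is given. The intervals cover counting error only.

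Among promoter regions alone, 78 of the 178 in both lists held a peak of either TAF4b library (43.8%, 36.4 to 51.4%; background 21.5% of all replicate 1 promoter regions). The counts were 50 for TAF4b replicate 1 (28.1%; background 12.9%), 62 for replicate 2 (34.8%; background 15.8%) and 34 for peaks of each (19.1%; background 7.16%). The gap passed counting error in the highest score group. There, 39 of 110 promoter regions in both lists held a peak of TAF4b replicate 1 (35.5%, 26.6 to 45.1%), against 221 of 1100 others (20.1%, 17.8 to 22.6%). For TAF4b replicate 2 the counts were 51 of 110 (46.4%, 36.8 to 56.1%) and 254 of 1100 (23.1%, 20.6 to 25.7%). In neither library did these intervals overlap. In the 3 lower groups, which held 68 of the promoter regions in both lists, all intervals overlapped, and for TAF4b replicate 2 the second group had 5.0% against 9.23%. Scores within the highest group were still higher in the regions called again, with medians of 90.5 and 76.6. In the highest of 10 score groups, a peak of either TAF4b library lay in 39 of 69 promoter regions in both lists (56.5%, 44.0 to 68.4%) and in 164 of 451 others (36.4%, 31.9 to 41.0%). In this group the intervals stayed apart for TAF4b replicate 2, at 47.8% (35.6 to 60.2%) against 27.7% (23.6 to 32.1%), and overlapped for replicate 1, at 34.8% (23.7 to 47.2%) against 23.7% (19.9 to 27.9%). In the next group down they stayed apart for either library, at 55.6% (35.3 to 74.5%) against 29.1% (24.8 to 33.8%). There they overlapped for each library alone, as with 40.7% (22.4 to 61.2%) against 22.6% (18.6 to 26.9%) for TAF4b replicate 2.

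**Figure D5:**
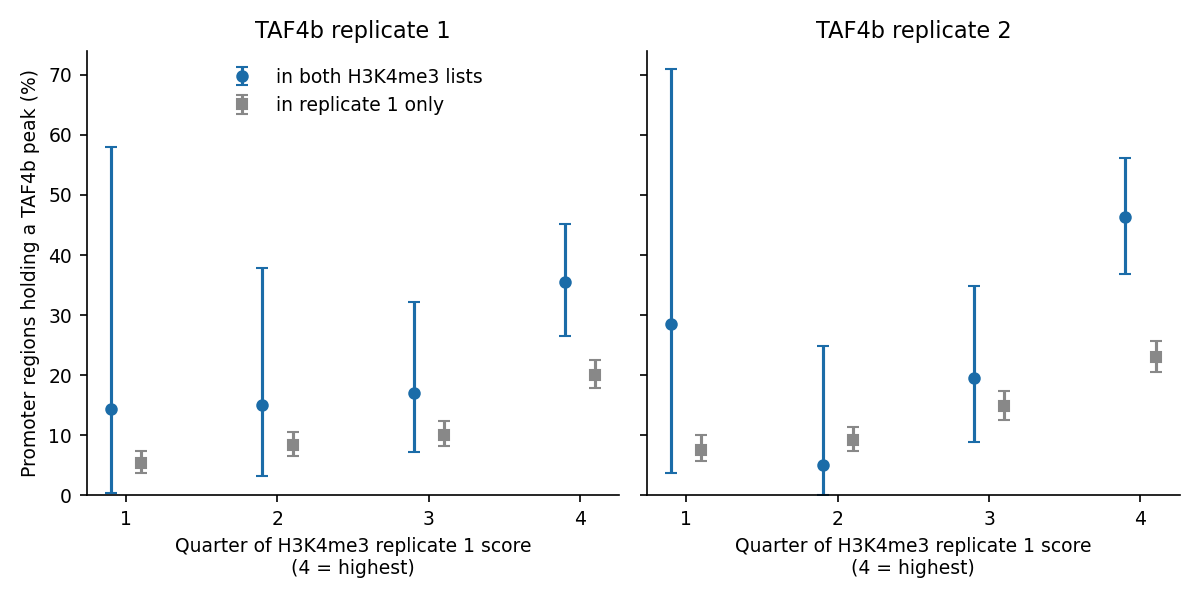
Share of promoter-class H3K4me3 replicate 1 regions (%) that hold a peak of TAF4b replicate 1 (left) or replicate 2 (right), in 4 groups of rising replicate 1 score, for regions in both H3K4me3 lists (circles) and in replicate 1 only (squares), with exact 95% intervals. In the highest group the shares are 35.5% and 20.1% on the left and 46.4% and 23.1% on the right.

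Replicate 2 gave a second view, in which nearly all regions have the same width. Among its promoter regions of exactly 500 bp, 62 of 157 that overlapped replicate 1 held a peak of either TAF4b library (39.5%, 31.8 to 47.6%), and 3 of 36 that did not (8.33%, 1.75 to 22.5%). By TAF4b library the counts were 40 and 2 for replicate 1 and 47 and 2 for replicate 2. Split at the median replicate 2 score, promoter regions in both lists held a peak in 34 of 93 cases at or below it (36.6%, 26.8 to 47.2%) and in 41 of 87 above it (47.1%, 36.3 to 58.1%), with overlapping intervals. Promoter regions of replicate 2 alone held one in 3 of 27 cases at or below the median (11.1%, 2.35 to 29.2%) and in 2 of 14 above it (14.3%, 1.78 to 42.8%). Within each score group these intervals overlapped those of the regions in both lists.

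Promoter regions in both lists that held TAF4b had higher replicate 1 scores than those that did not, with medians of 84.7 (71.9 to 97.4, n = 78) and 58.0 (51.0 to 67.3, n = 100). In replicate 2 the medians were 92.2 and 85.1, with overlapping intervals. The TAF4b peaks in regions of both lists, of any class, had somewhat higher median scores than those in other regions, with intervals that touched or overlapped. In TAF4b replicate 1 the median was 8.66 for the 54 peaks in regions of both lists (8.08 to 10.4) and 8.08 for the 482 in other replicate 1 regions (7.7 to 8.08), and in TAF4b replicate 2 it was 21.3 (18.3 to 24.3, 70 peaks) and 19.3 (18.3 to 19.3, 576 peaks). Distance from the TSS was taken over promoter-class TAF4b peaks only. In TAF4b replicate 1 its median was -38.5 bp in regions of both lists (-61 to -12 bp, n = 54) and -61 bp in other regions (-74 to -54 bp, n = 453). In TAF4b replicate 2 it was -61 bp (-78 to -38 bp, n = 70) and -63 bp (-71 to -55 bp, n = 559). The intervals overlapped in each library.

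Outside the promoter class 5 of the 53 regions held a TAF4b peak (9.43%, 3.13 to 20.7%), against 100 of the 4517 others outside it (2.21%, 1.8 to 2.69%), a comparison not matched for score. All 5 were centred within 1 kb of a TSS. They lay on chromosome 4 at 109058676 to 109059630 (an intron) and 119150562 to 119152179 (a transcription end site), chromosome 3 at 87792275 to 87793222 (an exon), chromosome 5 at 24781791 to 24782465 and chromosome 2 at 178048544 to 178049364 (both introns). The first 3 of these held peaks of each TAF4b library, and these regions were chosen after their values were seen. Of the 27 regions beyond 1 kb, 0 held a peak, which allows a share of up to 11.1% by the limit of 3 counts of the total and up to 12.8% by the exact interval. The share in the 3337 others beyond 1 kb was 0.479%, so this count does not set the regions in both lists apart.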

How the data were processed

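Per the submitters' processing notes, HOMER 4.10, SAMtools 1.9, Bowtie2 2.3.0, FastQC 0.11.5, Trim Galore 0.5.0 and bcl2fastq 2.20 were used on GRCm39; their settings, and any use of IgG in calling, are not stated. The 4 deposited lists, 1 per library, give a peak score, a position, an annotation class and a signed distance to the TSS, per the file headers. The score is the authors' and its scaling is not stated. The focus ratio deposited for TAF4b peaks, a fraction, was not used. Read totals are not in the lists, so depth is unknown and absence from a list does not show absence of the mark.

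Overlap needed 1 bp or more. The 4 or 10 groups of replicate 1 score keep ties together. Other regions were weighted so that their score group, or score group and class, had the shares seen among the regions in both lists. Shares have exact (Clopper-Pearson) 95% intervals and medians have binomial order-statistic 95% intervals, both for counting error only. The weighting recovered known differences in simulated data, where membership depended on the score group alone. This does not test score differences within a group. The regions and comparisons were chosen with earlier results of these data known. Named regions are, by mean score percentile over both lists, the 10 highest, the 5 highest outside promoters, the 5 with the largest gap each way, the 5 highest with both TAF4b libraries, the 3 least overlapping and 3 nearest misses, and the 5 highest of replicate 2 alone, of which the text gives some. None of the 231 nearest transcripts matched a RefSeq gene table of the older build GRCm38.p6 (0 matched), so no gene is named, gene lists were not counted, and no sequence of GRCm39 is shown. Python 3.11.15, pandas 2.3.3, NumPy 2.4.6, SciPy 1.17.1 and matplotlib 3.10.9 were used.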

Additional observations from a re-analysis of the deposited data

How the results depend on the processing

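Of 25 alternatives to 6 results, 0 reversed a direction. Leaving aside the correlation of scores, which has no counting interval here, 21 of the other 22 stayed within counting error of the value given, or within 1.5 times it for the number of regions. With peaks called in both TAF4b lists only, the gap to the weighted others was 8.54 percentage points, against 14.8 for either list; a peak in both lists is rarer by construction. Leaving out each TAF4b replicate gave gaps of 10.3 to 13.0 points, and adding width to the weighting gave 14.6. Spearman's rho was 0.182 on chromosomes 1 to 19 and X and 0.204 in the promoter class, against 0.203. Leaving out an H3K4me3 replicate leaves no region that both lists call, so it was not run. No paired analysis was possible because no result comes from a test and each region rests on both H3K4me3 replicates at once. Unknown depth limits what the absence of a replicate 1 region from the short replicate 2 list shows.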

Other observations

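The 89 regions of replicate 2 that overlapped none of replicate 1 had another make-up, with 41 in the promoter class (46.1%, 35.4 to 57.0%), against 77.9% of the replicate 2 regions that did overlap. Their median score was 85.1, the same as that of the 231. They included the highest-scoring regions of that list: of the 5 with a score above 1000, 1 was called in replicate 1. The highest lay in an exon on chromosome 2 at 98496936 to 98497821 and had a score of 27445.5, with the nearest replicate 1 region 514414 bp away. The next were intergenic on chromosome 17 at 40154046 to 40156950 (3956.2) and on chromosome 12 at 3159740 to 3160240 (2538.2), and intronic on chromosome 9 at 35216459 to 35216959 (1971). None of these 4 held a TAF4b peak, though a peak of TAF4b replicate 2 lay 926 bp from the region on chromosome 17. The fifth of the 89, at 67686 to 68756 on contig JH584304.1 with a score of 680.6, lay 7353 bp from a replicate 1 region. That contig also holds the region with the highest mean percentile among the 231. Why these regions have no replicate 1 call was not tested. No region was filtered out here, and IgG was not analysed. Whether these scores, or those on contig JH584304.1, reflect the mark was therefore not tested.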
